A study of Mus musculus with 18 samples.

Results

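The libraries described here are those of the colon of tumour-bearing mice treated with nivolumab, set against the colon of sham mice across all genes. They were chosen by the tissue and treatment in the labels, and they make up 6 of the 18 bulk RNA-sequencing libraries of the series. Nivolumab mice (3 libraries) carried a bone tumour and received nivolumab, an antibody made to block the human PD-1 receptor. Sham mice (3 libraries) underwent sham surgery and received a control IgG. Nivolumab mice thus differed from sham mice in both the tumour and the antibody. Mice with the tumour and the control IgG (cancer, 3 colon libraries) entered the same fit, and their values are given beside the others for that reason. All mice are labelled wild type (WT). Not given in the sources used here are the tumour cell line, the doses, the strain, age and sex of the mice, the stretch of colon and the binding of this antibody to mouse PD-1. Nothing in the labels says that each library came from its own animal, so a p-value here reflects the spread among these libraries alone, and that spread may be technical.

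The colon wall is lined by crypts, in which stem cells at the base give rise to absorptive colonocytes and to secretory cells. Goblet cells build the mucus layer, tuft cells sense luminal signals and make eicosanoids and interleukin 25, and plasma cells in the lamina propria secrete dimeric IgA held together by the joining chain. PD-1 is an inhibitory receptor of activated T cells, and colitis with neutrophils in the mucosa is a known adverse effect of PD-1 blockade in patients. Neutrophils enter the gut wall along gradients of the chemokines that bind CXCR2.

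Total counts were 24438022 to 30803957 in the 6 libraries, so that 3 counts corresponded to 0.0950 to 0.120 CPM, the count scaled to the size of the library. The mean log2 CPM of 12 colon identity genes was 8.88 to 9.42 in the nivolumab libraries and 9.02 to 9.76 in the sham libraries, which goes with the tissue label. Some libraries stood apart. Smooth muscle genes had a mean log2 CPM of 6.56, 6.06 and 6.14 in the nivolumab libraries and of 7.23, 8.39 and 5.08 in the sham libraries, and enteric neuron genes had 2.47, 3.64 and −0.03 in sham. Of the 6 libraries, sham 3 thus held the least muscle and nerve RNA and sham 2 the most, and sham 3 lay at one end of the first principal component of the 9 libraries (41.9% of the variance). Nivolumab 1 had a mean of 3.56 log2 CPM over 38 cell cycle genes, against 5.94 and 5.98 in the other nivolumab libraries and 5.50 to 5.85 in the sham libraries. For some lists, counts are also given without single libraries. The crypt base, fatty acid oxidation, xenobiotic metabolism, enteric neuron and glia counts are given with all libraries only. In bulk RNA, fewer cells of a type and less RNA per cell cannot be told apart.

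No gene passed an adjusted p of 0.05 between nivolumab and sham colon in the quasi-likelihood test of edgeR, with Benjamini-Hochberg adjustment over the 13445 genes tested (0% in either direction). Fam221a and Chrm3, both lower in nivolumab, were among the genes with the smallest adjusted p, 0.0892. At an unadjusted p under 0.05 stood 867 genes (6.45%), 484 of them higher (3.6%) and 383 lower (2.85%), where 672 would be 5% of the genes tested. DESeq2 called 81 genes higher (0.541%) and 66 lower (0.441%) of 14971, and limma with voom quality weights called 49 higher (0.364%) and 44 lower (0.327%). Both tools called 66 genes in common. A fit of the 2 groups alone called 1 gene higher (0.00752% of 13298), Ereg, and 6 lower (0.0451%), among them Itln1, Clca1, Pla2g4c, Clca2 and Fam221a.

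For 1185 genes (8.81%) all 3 nivolumab libraries lay above all 3 sham libraries in CPM, and for 822 genes (6.11%) they lay below. Such a gene is said below to have no overlap. Every list count below is to be read beside these shares of all genes. Those at an unadjusted p under 0.05 are to be read beside 3.6% higher and 2.85% lower. Among genes whose mean log2 CPM was at least 1 and whose means differed at least 2-fold, 120 genes were higher with no overlap and 140 were lower. The median log2 fold change over all genes was 0.03. All fold changes are nivolumab over sham unless the cancer group is named. Because no gene passed the threshold, genes with the smallest p in each direction were named, together with 1 or 2 members of each gene list with the smallest p. Other genes named below were chosen after their values were seen, mostly because their libraries did not overlap.

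**Figure D1:**
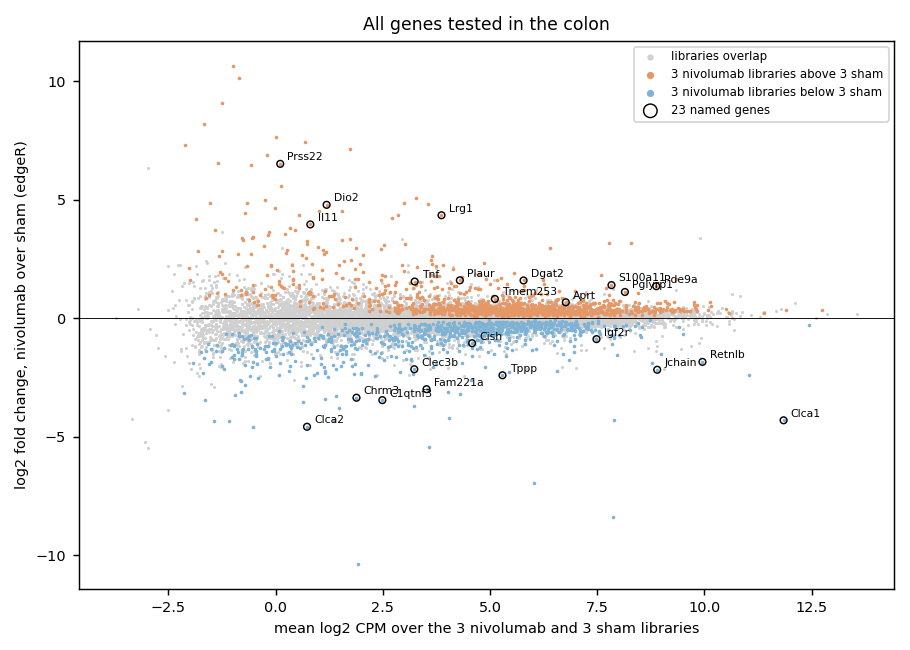
Log2 fold change of nivolumab over sham colon (vertical axis) against the mean log2 CPM over the 6 libraries (horizontal axis) for the 13445 genes tested, with genes whose 3 nivolumab libraries all lay above (orange) or below (blue) the 3 sham libraries coloured and the 23 named genes ringed. The cloud is centred near 0 (median 0.03), and Clca2 (−4.58) lies farthest below it among the ringed genes while Prss22 (6.51) lies farthest above.

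Several of the genes with lower values in nivolumab are goblet cell products that form and shape colonic mucus. Clca1, a goblet cell metalloprotease that remodels mucus, had 955, 1029 and 552 CPM in the nivolumab libraries, 13258, 1776 and 1741 CPM in the cancer libraries and 14104, 18793 and 17248 CPM in the sham libraries. All 3 nivolumab libraries lay far below every sham library, and the cancer libraries lay between the groups (log2 fold change −4.31, SE 0.83, adjusted p = 0.331). Clca2, a calcium-activated chloride channel regulator encoded 37.5 kb from Clca1 on chromosome 3, had 0.281, 0.403 and 0.235 CPM in the nivolumab libraries, 0.949, 0.0870 and 0.646 CPM in the cancer libraries and 5.29, 8.30 and 8.71 CPM in the sham libraries. Its nivolumab libraries were all low and its sham libraries all high (log2 fold change −4.58, SE 0.75, adjusted p = 0.265). Retnlb encodes RELM-beta, a goblet cell protein that acts on bacteria. It had 670.3, 463 and 468 CPM in the nivolumab libraries, 1596, 711 and 1507 CPM in the cancer libraries and 1683, 1534 and 2524 CPM in the sham libraries (log2 fold change −1.84, SE 0.34, adjusted p = 0.331), with the nivolumab libraries below every other library. Against the cancer libraries the adjusted p was 0.394 for Clca1, 0.646 for Clca2 and 0.379 for Retnlb, so the nivolumab and cancer groups were not separated by edgeR for any of the 3 genes.

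Other goblet cell genes lay on the same side. Fcgbp, a large structural protein of mucus, had 1077, 1245 and 541 CPM in the nivolumab libraries, against 3679, 6114 and 5155 CPM in the sham libraries (log2 fold change −2.38). Spink4, a small goblet cell protein of the protease inhibitor family, had 171, 416 and 135 CPM in the nivolumab libraries, against 847, 1125 and 736 CPM in the sham libraries (log2 fold change −1.91). Itln1, a lectin that binds microbial sugars, had 2.77, 0.672 and 2.31 CPM in the nivolumab libraries, 2491, 57.7 and 6.81 CPM in the cancer libraries and 102, 74.6 and 70.8 CPM in the sham libraries. The 3 nivolumab libraries were at the bottom and cancer 1 far above all the others. Foxa3, a transcription factor of goblet cells, was also lower with no overlap (log2 fold change −0.97), as was the membrane tryptase Tpsg1 (log2 fold change −1.04).

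Not every goblet gene was lower. Tff3, the trefoil peptide of goblet cells, had 635, 342 and 147 CPM in the nivolumab libraries, against 368, 294 and 249 CPM in the sham libraries, and the mucus lectin Zg16 had 4863, 1973 and 893 CPM in the nivolumab libraries, against 1716, 1115 and 987 CPM in the sham libraries; the groups overlapped for both. Of 25 goblet and mucus genes tested, 0 were higher and 9 lower with no overlap (0% and 36%, beside 8.81% and 6.11% of all genes). The median log2 fold change of the list was −0.27, beside 0.03 over all genes. An unadjusted p under 0.05 was reached by 7 lower members and 1 higher member, and by 4 lower and 1 higher without nivolumab 3.

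Tuft cell genes formed the list with the highest share of lower members. Of 21 tested, 0 were higher and 14 were lower with no overlap (66.7%, beside 6.11% of all genes). The median log2 fold change was −0.81. Dclk1, the kinase that marks tuft cells, had 20.9, 10.6 and 16.0 CPM in the nivolumab libraries, 27.7, 39.6 and 36.8 CPM in the cancer libraries and 39.2, 43.1 and 30.1 CPM in the sham libraries (log2 fold change −1.24, SE 0.27, adjusted p = 0.376). Its nivolumab libraries lay below all 6 other libraries. Il17rb, the receptor through which interleukin 25 acts, had 3.85, 2.08 and 3.08 CPM in the nivolumab libraries, 7.85, 2.92 and 7.56 CPM in the cancer libraries and 7.85, 7.82 and 9.11 CPM in the sham libraries (log2 fold change −1.46, SE 0.43, adjusted p = 0.602). Pou2f3, the transcription factor on which tuft cells depend, had 2.33, 0.369 and 1.44 CPM in the nivolumab libraries, against 5.70, 4.41 and 6.31 CPM in the sham libraries (log2 fold change −1.99), which places the groups apart although the counts were low.

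Taste-type signalling genes of tuft cells were among the lower ones. Trpm5, a cation channel opened in the taste cascade, had 11.2, 3.02 and 5.60 CPM in the nivolumab libraries, 29.7, 5.05 and 32.1 CPM in the cancer libraries and 30.8, 23.4 and 28.4 CPM in the sham libraries (log2 fold change −2.06). Gnat3, the taste G protein gustducin, had 0.762, 0.235 and 0.335 CPM in the nivolumab libraries, against 2.72, 1.83 and 2.37 CPM in the sham libraries (log2 fold change −2.38), and Rgs13, a regulator of G protein signalling, had a log2 fold change of −1.96. The eicosanoid genes Alox5 (log2 fold change −1.65) and Hpgds (log2 fold change −1.11) also had no overlap. In the cancer group, library 2 had values near those of nivolumab for Trpm5, Pou2f3, Gnat3 and Rgs13, and libraries 1 and 3 had higher ones. Of the tuft genes, 11 were lower at an unadjusted p under 0.05, beside 2.85% of all genes. The count became 4 without nivolumab 2, 6 without sham 1, and 7 without either nivolumab 3 or sham 3.

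Stem and crypt base genes had 6 of 18 lower with no overlap (33.3%, beside 6.11% of all genes) and 0 higher. Their median log2 fold change was −0.41. Reg4, a lectin of deep crypt secretory cells, had 29.7, 158 and 21.4 CPM in the nivolumab libraries, 6.91, 0.827 and 3.88 CPM in the cancer libraries and 853, 2362 and 875 CPM in the sham libraries (log2 fold change −4.29, SE 0.99, adjusted p = 0.417). The cancer libraries were lower still for Reg4. Axin2, a target of Wnt signalling, had a log2 fold change of −1.22 with no overlap. Lgr5, the marker of cycling stem cells, had 0.762, 8.73 and 7.47 CPM in the nivolumab libraries, against 6.93, 9.72 and 9.98 CPM in the sham libraries; nivolumab 1 was low and the other libraries were alike. The 38 cell cycle genes included 0 with no overlap in either direction (median −0.09). In the Wnt pathway 1 of 35 genes was higher and 3 were lower (median −0.08), the smallest p being that of Wnt2b (log2 fold change −1.40).

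Of 23 absorptive colonocyte genes, 2 were higher and 1 lower with no overlap (median 0.12). The gene with the smallest p was Guca2b, encoding uroguanylin, with 70.4, 29.8 and 26.9 CPM in the nivolumab libraries, against 20.9, 15.5 and 17.6 CPM in the sham libraries (log2 fold change 1.23, SE 0.46, adjusted p = 0.715). Slc5a8, a sodium-coupled carrier of short-chain fatty acids, had 116, 220.0 and 205 CPM in the nivolumab libraries, against 296, 267 and 314 CPM in the sham libraries (log2 fold change −0.70). Among 26 ion and water transport genes 2 were higher and 2 lower (7.69% each, beside 8.81% and 6.11% of all genes), with a median of −0.16. Hsd11b2, the enzyme that inactivates corticosterone in mineralocorticoid target cells, had 597, 306 and 245 CPM in the nivolumab libraries, 382, 304 and 173 CPM in the cancer libraries and 109.8, 80.9 and 131 CPM in the sham libraries (log2 fold change 1.83, SE 0.40, adjusted p = 0.372). Scnn1b, the beta subunit of the epithelial sodium channel, had a log2 fold change of 1.37. Both had no overlap, while the share of higher genes in the list was near that of all genes.

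The other epithelial lists held few genes with no overlap. Enteroendocrine cells had 1 of 28 higher and 0 lower (median 0.07), the 1 gene being Tac1 (log2 fold change 1.36), which encodes substance P and is shared with enteric neurons. Tight junctions and desmosomes had 2 of 25 higher and 1 lower (median 0.23), with Jup, the junction protein plakoglobin, at 0.45. Colon identity genes had 1 of 12 higher, Gpa33 at 0.31, and 0 lower. The 17 genes of proximal or distal position had 0 in either direction (median 0.09), and keratinised epithelium had 2 of 14 higher and 1 lower (median 0.41).

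**Figure D2:**
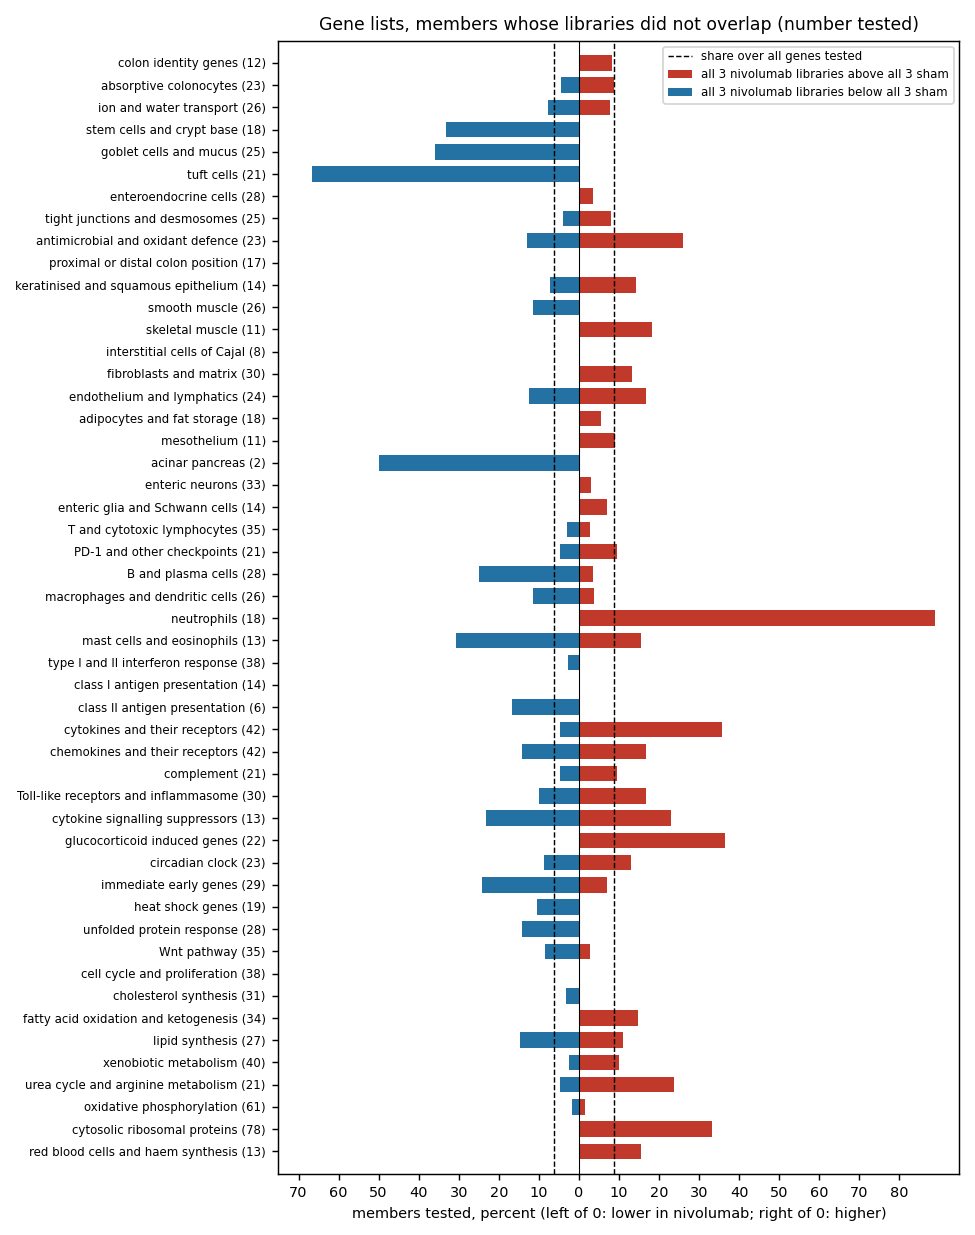
Share of the tested members of each gene list whose 3 nivolumab libraries all lay above (right of 0) or all lay below (left of 0) the 3 sham libraries, in percent, with the number tested in parentheses. Dashed lines mark the shares over all genes tested (8.81% higher, 6.11% lower); neutrophil genes reach 88.9% higher and tuft cell genes 66.7% lower.

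Neutrophil genes had higher values in nivolumab, many of them from little or no signal in sham. Of 23 listed, 18 passed the expression filter, and of these 16 were higher with no overlap (88.9%, beside 8.81% of all genes) and 0 were lower, with a median log2 fold change of 3.65. Only 4 of the 18, namely Csf3r (log2 fold change 1.18), Ltf (log2 fold change 2.97), Il1b (log2 fold change 2.14) and Hdc (log2 fold change 2.42), held 10 counts or more in every sham library. The other 14 passed the filter with the help of libraries of the other groups, so the share and the median of the list are set in part by the filter. S100a8 and S100a9, the subunits of calprotectin, are the most abundant cytosolic proteins of neutrophils. S100a8 had 32.9, 4.47 and 40.4 CPM in the nivolumab libraries, 3.50, 15.4 and 1.54 CPM in the cancer libraries and 0.412, 0 and 0 CPM in the sham libraries (log2 fold change 7.44, SE 1.57, adjusted p = 0.372). All 3 nivolumab libraries held counts, and only 1 of the 3 sham libraries did. S100a9 had 54.9, 12 and 79.9 CPM in the nivolumab libraries, 4.45, 26.5 and 0.298 CPM in the cancer libraries and 0.665, 0.357 and 0 CPM in the sham libraries (log2 fold change 7.14).

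Some receptors and granule proteins of neutrophils had the same order. Clec4e, a receptor for damaged cells and mycobacterial lipid, had 2.69, 4.74 and 13.2 CPM in the nivolumab libraries, against 0.0950, 0.119 and 0.20 CPM in the sham libraries (log2 fold change 5.59, SE 1.21, adjusted p = 0.372). Cxcr2, the chemokine receptor of neutrophils, had 1.60, 0.437 and 5.56 CPM in the nivolumab libraries, against 0.0633, 0 and 0 CPM in the sham libraries, at or under 3 counts in every sham library. Mmp8, neutrophil collagenase, had 6.90, 1.07 and 8.04 CPM in the nivolumab libraries, 2.93, 11.6 and 0.249 CPM in the cancer libraries and 0, 0 and 0 CPM in the sham libraries, and Ngp, a granule protein, had 15.8, 0.269 and 6.84 CPM in the nivolumab libraries, 0.777, 5.87 and 0.447 CPM in the cancer libraries and 0, 0 and 0 CPM in the sham libraries. With sham at 0, the nivolumab mean was at least 51.0-fold higher for Mmp8 and at least 72.9-fold higher for Ngp, against a floor of 3 counts per library. Both bounds (5.67 and 6.19 as log2) lie above the list median of 3.65, so setting the genes to them could not move it.

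The neutrophil signal varied within both tumour-bearing groups. The mean log2 CPM of the list was 2.28, 1.17 and 3.30 in the nivolumab libraries, 1.08, 2.76 and −1.16 in the cancer libraries and −1.08, −1.53 and −1.82 in the sham libraries. All 3 nivolumab libraries and cancer 1 and 2 lay above every sham library, and cancer 3 lay within the sham range. Nivolumab against cancer gave adjusted p-values of 0.573 for S100a8 and 0.641 for Clec4e in edgeR. At an unadjusted p under 0.05 stood 13 of the 18 neutrophil genes, all higher, beside 3.6% of all genes. Leaving out any 1 of the 9 libraries gave 12 to 16. Because 14 of the 18 passed the filter with the help of the other groups, these counts are also set in part by the filter.

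**Figure D3:**
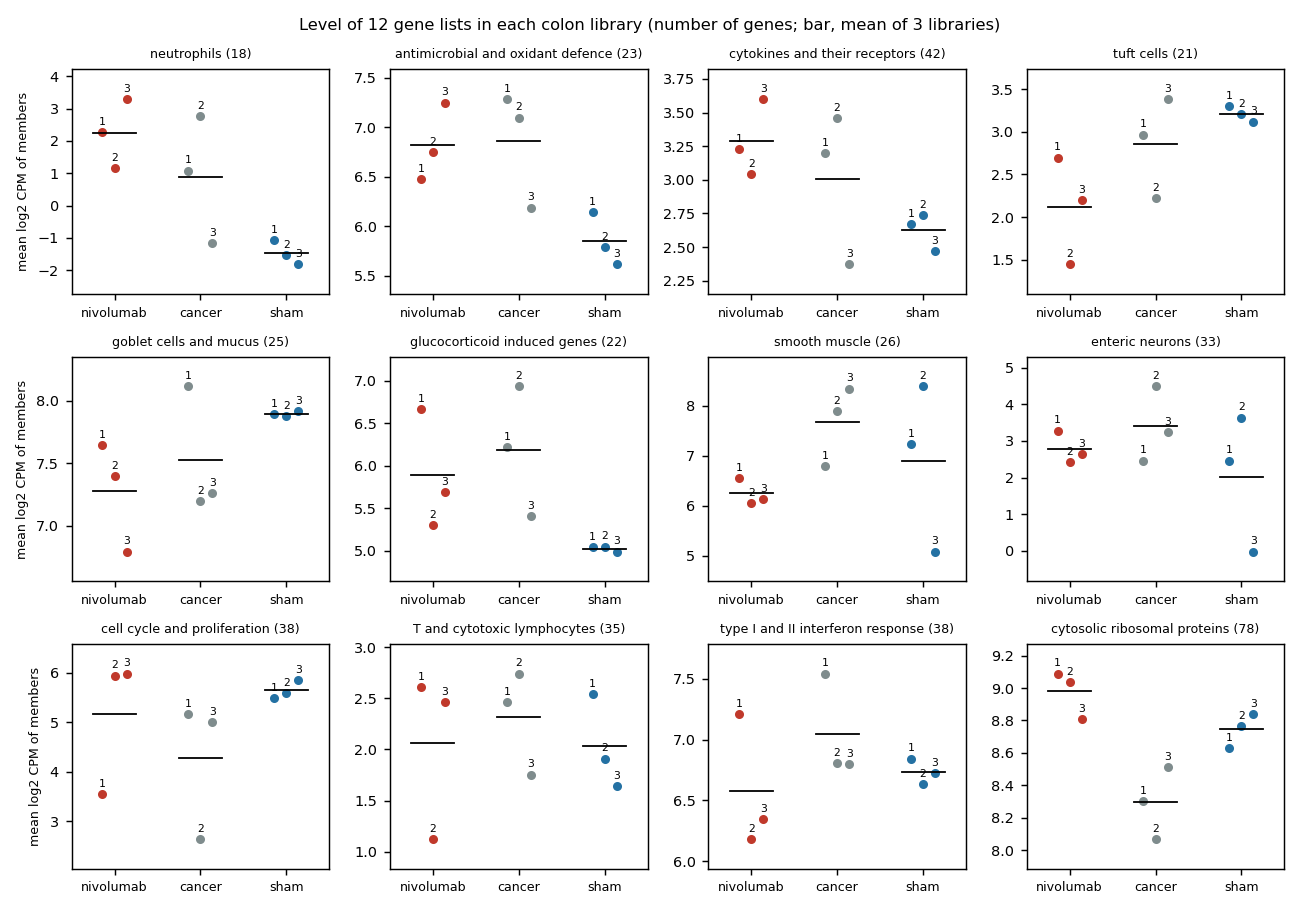
Mean log2 CPM of selected gene lists in each library, with nivolumab, cancer and sham from left to right and 1 point per library. Neutrophil genes range from 1.17 to 3.30 in nivolumab and from −1.82 to −1.08 in sham, while smooth muscle genes range from 6.06 to 6.56 in nivolumab and from 5.08 to 8.39 in sham.

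The chemokines that bind CXCR2 are encoded close together on chromosome 5, with 102 kb between Cxcl3 and Cxcl1 and 10.8 kb between Cxcl1 and Cxcl2. Their promoters are shown because the 3 genes had the same order of groups. They come from RefSeq on GRCm38.p6 and run from 250 bases before the start site to 50 after it. Capitals mark an 11-base run in which overlapping matches to the NF-kappaB motif were found, on both strands. The motif was present in 8.18% of 27025 promoter windows of this length.

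Cxcl1 promoter, chr5:90890995-90891294, + strand: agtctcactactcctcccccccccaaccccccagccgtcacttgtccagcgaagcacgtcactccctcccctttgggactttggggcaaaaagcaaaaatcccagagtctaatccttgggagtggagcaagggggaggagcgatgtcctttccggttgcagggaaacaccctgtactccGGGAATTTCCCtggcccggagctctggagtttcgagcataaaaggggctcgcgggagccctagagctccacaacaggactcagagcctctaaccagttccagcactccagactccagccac
Cxcl2 promoter, chr5:90903649-90903948, + strand: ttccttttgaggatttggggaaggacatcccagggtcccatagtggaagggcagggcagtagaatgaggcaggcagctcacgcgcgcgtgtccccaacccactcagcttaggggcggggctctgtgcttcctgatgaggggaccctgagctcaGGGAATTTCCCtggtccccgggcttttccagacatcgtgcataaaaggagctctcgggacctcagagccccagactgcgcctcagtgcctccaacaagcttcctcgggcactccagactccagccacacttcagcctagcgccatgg
Cxcl3 promoter, chr5:90785851-90786150, + strand: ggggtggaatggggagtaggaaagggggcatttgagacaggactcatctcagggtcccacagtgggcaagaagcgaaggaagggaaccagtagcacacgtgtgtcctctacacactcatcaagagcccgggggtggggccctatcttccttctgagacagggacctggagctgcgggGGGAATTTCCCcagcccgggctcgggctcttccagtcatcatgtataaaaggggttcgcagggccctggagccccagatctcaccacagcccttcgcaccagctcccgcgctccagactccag

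The run GGGAATTTCCC was the same in the 3 promoters and lay before the start site in each. A match is a run of letters and does not show that the factor binds there. Cxcl1 had 9.19, 11.5 and 8.14 CPM in the nivolumab libraries, 8.03, 6.44 and 0.944 CPM in the cancer libraries and 1.42, 1.23 and 0.300 CPM in the sham libraries. Cxcl2 had 11, 6.52 and 27.2 CPM in the nivolumab libraries, 5.31, 7.09 and 0.497 CPM in the cancer libraries and 0.918, 0.318 and 0.701 CPM in the sham libraries (log2 fold change 4.51, SE 0.99, adjusted p = 0.376). Cxcl3 had 2.85, 1.81 and 11.6 CPM in the nivolumab libraries, 1.51, 0.957 and 0.249 CPM in the cancer libraries and 0.443, 0.119 and 0.0667 CPM in the sham libraries. For all 3 genes every nivolumab library lay above every sham library, with log2 fold changes of 3.28 for Cxcl1 and 4.64 for Cxcl3. Ccl2, which attracts monocytes, also had no overlap (log2 fold change 1.67).

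Over the whole list, which holds 4 higher genes that were under 10 counts in a sham library, 7 of 42 chemokine genes were higher and 6 lower with no overlap, and the median was 0.00. Ccl6, a myeloid chemokine, was among the lower genes, with 216, 194 and 142 CPM in the nivolumab libraries, against 348, 331 and 253 CPM in the sham libraries (log2 fold change −0.76). Unadjusted p-values under 0.05 belonged to 5 higher and 3 lower genes. No lower gene was left without nivolumab 2 or without sham 1, and 1 was left without sham 2.

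Cytokine genes were mostly higher where they separated. Of 42 cytokines and receptors, 15 were higher and 2 lower with no overlap (35.7% and 4.76%, beside 8.81% and 6.11% of all genes). The median log2 fold change was 0.25. Of the 15, 2 were under 10 counts in a sham library, so the higher share is set in part by the filter. Tnf, encoding tumour necrosis factor, had 13.2, 13.5 and 22.2 CPM in the nivolumab libraries, 21.7, 31.0 and 19.1 CPM in the cancer libraries and 5.51, 5.52 and 5.67 CPM in the sham libraries (log2 fold change 1.55, SE 0.28, adjusted p = 0.322). The sham libraries were nearly equal, and both other groups lay above them. Il11, a cytokine of stromal cells that signals through gp130, had 5.90, 7.52 and 6.33 CPM in the nivolumab libraries, 1.68, 0.957 and 0.249 CPM in the cancer libraries and 0.348, 0.238 and 0.667 CPM in the sham libraries (log2 fold change 3.96, SE 0.71, adjusted p = 0.322). Its nivolumab libraries lay above all 6 others, though nivolumab against cancer had an adjusted p of 0.356.

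Other gp130 cytokines and neutrophil growth factors had little signal in sham. Il6 had 3.61, 2.69 and 2.08 CPM in the nivolumab libraries, 0.993, 1.78 and 0.199 CPM in the cancer libraries and 0.0633, 0 and 0.20 CPM in the sham libraries (log2 fold change 4.88, SE 1.06, adjusted p = 0.372). Csf3, the granulocyte colony-stimulating factor, had 8.59, 1.91 and 3.02 CPM in the nivolumab libraries, against 0.0633, 0.0794 and 0 CPM in the sham libraries (log2 fold change 6.46). Osm, oncostatin M, had 3.05, 1.01 and 5.46 CPM in the nivolumab libraries, against 0.475, 0.595 and 0.334 CPM in the sham libraries (log2 fold change 2.75), and its receptor Osmr had a log2 fold change of 1.29. Each sham library of Il6 and Csf3 held at most 6 counts, so the size of these folds depends on the prior count.

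Cytokines of the interleukin 1 family followed. Il1rn, the natural antagonist of the interleukin 1 receptor, had 112, 152 and 118 CPM in the nivolumab libraries, against 48.4, 44.1 and 47.0 CPM in the sham libraries (log2 fold change 1.46). The sham libraries were close to each other and all below the nivolumab libraries. Il33, an alarmin, had a log2 fold change of 2.26, and Il18, an epithelial cytokine processed by caspase 1, one of 1.17, both with no overlap. In the cytokine list 11 genes were higher and 1 lower at an unadjusted p under 0.05, beside 3.6% and 2.85% of all genes. Without nivolumab 3, 6 were higher.

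Antimicrobial and oxidant defence genes separated in both directions. The lower ones included Retnlb, given above as a goblet cell gene (log2 fold change −1.84). Of 23 tested, 6 were higher and 3 lower with no overlap (26.1% and 13%, beside 8.81% and 6.11% of all genes). The list median was 0.41. Of the 6, 2 were under 10 counts in a sham library, so the higher share is set in part by the filter. Reg3g, a C-type lectin that kills Gram-positive bacteria, had 1462, 294 and 1729 CPM in the nivolumab libraries, 1873, 1888 and 1148 CPM in the cancer libraries and 227, 48.4 and 114 CPM in the sham libraries (log2 fold change 3.16). Reg3b had 6817, 723 and 5531 CPM in the nivolumab libraries, against 781, 91.7 and 389.9 CPM in the sham libraries, so nivolumab 2 lay within the sham range. Reg3b and Reg3g are alike in sequence and may share reads. Lcn2, which withholds iron from bacteria, had 123, 21.2 and 66.4 CPM in the nivolumab libraries, 21.2, 125 and 2.14 CPM in the cancer libraries and 2.47, 1.91 and 3.04 CPM in the sham libraries (log2 fold change 4.82, SE 1.29, adjusted p = 0.512).

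Nos2, the inducible nitric oxide synthase, had 58.4, 191 and 288 CPM in the nivolumab libraries, 255, 381 and 339.8 CPM in the cancer libraries and 58.7, 63.4 and 29.8 CPM in the sham libraries (log2 fold change 1.82, SE 0.52, adjusted p = 0.549). Nivolumab 1 lay among the sham libraries and the other 2 lay far above them. Noxo1, the organiser of the epithelial NADPH oxidase, had 212, 188 and 164 CPM in the nivolumab libraries, against 121, 125 and 118 CPM in the sham libraries (log2 fold change 0.63, SE 0.13, adjusted p = 0.372), but its exons overlap Tbl3 on the other strand. Ltf, lactoferrin, had a log2 fold change of 2.97 with no overlap. An unadjusted p under 0.05 was reached by 9 higher and 2 lower genes, beside 3.6% and 2.85% of all genes. The lower count was 1 without nivolumab 2.

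Several genes of plasma cells were lower. Jchain, the joining chain of dimeric IgA, had 224, 165 and 295 CPM in the nivolumab libraries, 256, 162 and 88.5 CPM in the cancer libraries and 912, 1146 and 1030.1 CPM in the sham libraries (log2 fold change −2.17, SE 0.37, adjusted p = 0.298). The nivolumab and cancer libraries lay below all 3 sham libraries. Tnfrsf17, the plasma cell survival receptor BCMA, had 1.24, 0.537 and 0.670 CPM in the nivolumab libraries, 0.345, 0.261 and 0.298 CPM in the cancer libraries and 3.04, 3.41 and 3.07 CPM in the sham libraries (log2 fold change −1.96, SE 0.46, adjusted p = 0.417). Irf4, a transcription factor of plasma cells, had 2.61, 4.30 and 8.71 CPM in the nivolumab libraries, against 17.3, 19.1 and 14.7 CPM in the sham libraries (log2 fold change −1.71). Mzb1, a chaperone of immunoglobulin assembly, had 3.85, 6.25 and 9.95 CPM in the nivolumab libraries, against 14.6, 26.1 and 18.4 CPM in the sham libraries (log2 fold change −1.56). The plasma cell genes Derl3 (log2 fold change −1.10) and Tnfrsf13b (log2 fold change −1.21) also had no overlap.

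Of 28 B and plasma cell genes, 1 was higher and 7 lower with no overlap (3.57% and 25%, beside 8.81% and 6.11% of all genes). Their median was −0.10. The higher gene was Cd38 (log2 fold change 0.66), an enzyme that consumes NAD and that is also made by epithelial cells. Of this list 1 gene was higher and 6 were lower at an unadjusted p under 0.05, beside 3.6% and 2.85% of all genes. With any 1 library left out, 5 to 7 were lower. Of 6 antigen receptor segments tested, 1 was higher with no overlap and 0 were lower.

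The mouse gene of PD-1 was weakly expressed. Pdcd1, encoding PD-1, had 1.28, 0.739 and 1.17 CPM in the nivolumab libraries, 2.11, 1.65 and 0.795 CPM in the cancer libraries and 0.855, 0.675 and 0.601 CPM in the sham libraries (log2 fold change 0.58, SE 0.51, adjusted p = 0.929). The groups overlapped. Cd274, encoding the ligand PD-L1, had 32.1, 19.0 and 31.8 CPM in the nivolumab libraries, 31.5, 82.3 and 48.4 CPM in the cancer libraries and 49.1, 49.2 and 28.4 CPM in the sham libraries (log2 fold change −0.61, SE 0.38, adjusted p = 0.857), and Pdcd1lg2, encoding PD-L2, had 0.241, 0.638 and 1.07 CPM in the nivolumab libraries, 0.906, 0.827 and 0.348 CPM in the cancer libraries and 1.58, 1.39 and 1.13 CPM in the sham libraries (log2 fold change −1.06, SE 0.62, adjusted p = 0.847). The nivolumab libraries lay below sham for Pdcd1lg2 only, at levels of about 1 CPM.

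Among 21 PD-1 and other checkpoint genes, 2 were higher with no overlap and 1 was lower (median 0.13). The higher genes were the co-stimulatory receptor Tnfrsf9, or 4-1BB (log2 fold change 1.13), and the CD28 ligand Cd80 (log2 fold change 1.10). Of 35 T cell and cytotoxic lymphocyte genes, 1 was higher and 1 lower (median 0.19). The lower gene was the co-stimulatory receptor Cd28 (log2 fold change −1.07). The mean log2 CPM of the T cell list was 2.61, 1.12 and 2.46 in the nivolumab libraries and 2.54, 1.91 and 1.64 in the sham libraries, so the groups overlapped.

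Interferon and antigen presentation genes gave little separation. Of 38 genes of the interferon response, 0 were higher and 1 was lower, Oas1g at −0.49 (median −0.14). Class I presentation had 0 of 14 in either direction (median 0.07). Of 6 class II genes, 0 were higher and 1 was lower. This was Ciita, the transactivator of class II genes, with 29.9, 31.4 and 34.4 CPM in the nivolumab libraries, 70.3, 99.3 and 84.9 CPM in the cancer libraries and 80.9, 52.3 and 50.4 CPM in the sham libraries (log2 fold change −0.94, SE 0.21, adjusted p = 0.417). Its exons overlap Dexi on the other strand, and the list median was −0.04.

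Myeloid and innate lists other than neutrophils were mixed. Macrophages and dendritic cells had 1 of 26 higher and 3 lower (3.85% and 11.5%, beside 8.81% and 6.11% of all genes). The log2 fold change was positive for 9 and negative for 17 (median −0.07). The higher gene was the scavenger receptor Marco, with 3.21, 1.07 and 3.35 CPM in the nivolumab libraries, 0.302, 2.83 and 0.249 CPM in the cancer libraries and 0, 0 and 0 CPM in the sham libraries, which is at least 24.3-fold higher in nivolumab against a floor of 3 counts per library. Marco passed the filter only through libraries of the other groups. Toll-like receptor and inflammasome genes had 5 of 30 higher and 3 lower (16.7% and 10%, beside 8.81% and 6.11% of all genes), with a median of 0.25. The higher ones included Nlrp3 (log2 fold change 2.24), an inflammasome sensor. Myd88 (log2 fold change 0.43), the adaptor of Toll-like receptors, was also higher, and its exons overlap Acaa1a on the other strand. Complement had 2 of 21 higher and 1 lower (median 0.04), with the protective receptor Cd55 at −0.56.

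Several mast cell genes lay below sham. Of 13 mast cell and eosinophil genes, 2 were higher and 4 lower with no overlap (15.4% and 30.8%, beside 8.81% and 6.11% of all genes). Their median was −0.52. Mcpt1, the protease of mucosal mast cells, had 6.22, 13.4 and 11.3 CPM in the nivolumab libraries, against 88.7, 26.7 and 70.5 CPM in the sham libraries (log2 fold change −2.59, SE 0.84, adjusted p = 0.657). Ms4a2 and Fcer1a, subunits of the IgE receptor, had log2 fold changes of −2.64 and −3.45, and Cpa3, a mast cell carboxypeptidase, one of −2.01. The IgE receptor genes had under 2 CPM in every library, so their folds are imprecise.

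Feedback genes of cytokine signalling lay on both sides. Cish is induced through STAT5 downstream of cytokine receptors and restrains them. Its promoter from RefSeq on GRCm38.p6 is shown because it holds 2 matches to TTCNNNGAA, the STAT motif, in capitals. Both strands were searched, the motif reads the same on each, and 8.47% of 27025 promoter windows held it.

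Cish promoter, chr9:107296409-107296708, + strand: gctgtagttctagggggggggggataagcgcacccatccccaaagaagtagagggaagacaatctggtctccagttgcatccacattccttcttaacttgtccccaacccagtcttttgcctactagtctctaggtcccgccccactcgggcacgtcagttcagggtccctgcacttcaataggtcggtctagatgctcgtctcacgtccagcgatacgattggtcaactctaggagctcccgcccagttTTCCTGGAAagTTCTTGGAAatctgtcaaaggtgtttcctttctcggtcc

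The matches begin at the annotated start site and shortly after it, at bases 251 to 259 and 262 to 270 of the window. Cish had 14.8, 19.4 and 15.7 CPM in the nivolumab libraries, 26.1, 30.2 and 24.7 CPM in the cancer libraries and 36.0, 36.8 and 30.9 CPM in the sham libraries (log2 fold change −1.05, SE 0.17, adjusted p = 0.265). The nivolumab libraries lay below the cancer libraries and these below the sham libraries, with no overlap at either step. Exons of Gm17040 and Gm17041 overlap Cish on the other strand. Nivolumab against cancer had a log2 fold change of −0.70 and an adjusted p of 0.372. Socs3, the suppressor induced through STAT3 by interleukin 6 and its relatives, had 113, 119 and 169 CPM in the nivolumab libraries, 247, 181 and 72.5 CPM in the cancer libraries and 52.3, 41.9 and 36.1 CPM in the sham libraries (log2 fold change 1.62, SE 0.40, adjusted p = 0.469). Both the nivolumab and cancer libraries lay above sham for Socs3. In the list, 3 of 13 were higher and 3 lower (median −0.03).

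Genes that glucocorticoids induce were often higher. Of 22 tested, 8 were higher and 0 lower with no overlap (36.4% and 0%, beside 8.81% and 6.11% of all genes). The median log2 fold change was 0.73. Lcn2, described above with the antimicrobial genes, is among the 8 and had the smallest p of this list (log2 fold change 4.82). Zbtb16, a zinc finger protein that responds strongly to glucocorticoids, had 25.0, 14.1 and 17.2 CPM in the nivolumab libraries, 53.1, 88.4 and 41.0 CPM in the cancer libraries and 2.63, 7.14 and 9.98 CPM in the sham libraries (log2 fold change 1.51). The cancer libraries were the highest for Zbtb16. Hif3a had 46.1, 19.4 and 17.1 CPM in the nivolumab libraries, against 7.98, 9.29 and 6.54 CPM in the sham libraries (log2 fold change 1.79, SE 0.52, adjusted p = 0.562), and Mt1, a metallothionein, had 510.0, 107 and 172 CPM in the nivolumab libraries, against 36.5, 28.3 and 37.0 CPM in the sham libraries (log2 fold change 2.95). The nivolumab libraries were all above sham, with nivolumab 1 the highest in each of these 3 genes. Of the list 9 genes were higher and 0 lower at an unadjusted p under 0.05, beside 3.6% and 2.85% of all genes. Without nivolumab 1 these counts were 5 and 3, and the median was 0.07.

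Immediate early genes, which respond within minutes to stimulation or tissue handling, lay on both sides where they separated. Of 29 tested, 2 were higher and 7 lower with no overlap (6.9% and 24.1%, beside 8.81% and 6.11% of all genes). Their median was −0.25. Fos had 62.2, 101 and 86.7 CPM in the nivolumab libraries, 119, 151 and 266 CPM in the cancer libraries and 182, 211 and 169.9 CPM in the sham libraries (log2 fold change −1.17, SE 0.30, adjusted p = 0.494). Atf3, a stress-induced transcription factor, had 31.5, 20.3 and 20.2 CPM in the nivolumab libraries, 25.5, 73.4 and 85.4 CPM in the cancer libraries and 74.1, 83.8 and 61.6 CPM in the sham libraries (log2 fold change −1.61, SE 0.40, adjusted p = 0.472). For both genes the nivolumab libraries lay below sham, and the cancer libraries were spread widely. Fosb (log2 fold change −2.29) and Btg2 (log2 fold change −0.56) also had no overlap. Ier3, an NF-kappaB target, was higher (log2 fold change 1.05). In this list 1 gene was higher and 5 were lower at an unadjusted p under 0.05, beside 3.6% and 2.85% of all genes. Without sham 3, 8 were lower.

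Other stress and timing lists had small medians. Heat shock genes had 0 of 19 higher and 2 lower (10.5%, beside 6.11% of all genes). Their median was −0.22, with Hspa1b, an inducible Hsp70, at −2.25. The unfolded protein response had 0 of 28 higher and 4 lower (14.3%, median −0.07), with Edem1 at −0.57. The circadian clock had 3 of 23 higher (13%, beside 8.81% of all genes) and 2 lower (8.7%), with a median of 0.08. Its smallest p-values belonged to the repressors Ciart (log2 fold change 1.54) and Per2 (log2 fold change 0.97).

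In the stroma, 4 of 30 fibroblast and matrix genes were higher with no overlap and 0 were lower (median −0.16). Mmp3, stromelysin 1, had 68.7, 78.0 and 38.5 CPM in the nivolumab libraries, 28.6, 33.2 and 1.24 CPM in the cancer libraries and 1.14, 3.61 and 0.801 CPM in the sham libraries (log2 fold change 5.07, SE 1.10, adjusted p = 0.372). Mmp10, stromelysin 2, had 36.9, 30.8 and 37.9 CPM in the nivolumab libraries, 12.2, 8.40 and 0.249 CPM in the cancer libraries and 0.633, 1.23 and 3.34 CPM in the sham libraries (log2 fold change 4.34). Both had nivolumab libraries above all 6 others. Timp1, the inhibitor of these enzymes, had 11.5, 13.8 and 26.0 CPM in the nivolumab libraries, against 1.52, 2.06 and 2.40 CPM in the sham libraries (log2 fold change 3.10, SE 0.72, adjusted p = 0.417).

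Of 24 endothelial and lymphatic genes, 4 were higher and 3 lower with no overlap (16.7% and 12.5%, beside 8.81% and 6.11% of all genes). The log2 fold change was positive for 11 and negative for 13, with a median of −0.04. Of the 4, 1 was under 10 counts in a sham library, so the higher share is set in part by the filter. The genes described here are all from the higher side. Lrg1, a glycoprotein induced in vessels and liver by inflammation, had 28.7, 103 and 87.8 CPM in the nivolumab libraries, 104, 59.8 and 15.8 CPM in the cancer libraries and 3.42, 5.60 and 1.80 CPM in the sham libraries (log2 fold change 4.34, SE 0.80, adjusted p = 0.322). Selp, the selectin that slows leukocytes on vessel walls, had 8.43, 5.58 and 20.0 CPM in the nivolumab libraries, 11, 10.1 and 0.696 CPM in the cancer libraries and 0.981, 1.71 and 0.634 CPM in the sham libraries (log2 fold change 3.36, SE 0.95, adjusted p = 0.549). Sele, its relative on activated endothelium, had a log2 fold change of 4.18 at about 1 CPM or less.

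Muscle genes depended on the sham libraries. Of 26 smooth muscle genes, 0 were higher and 3 lower with no overlap, with a median of −1.21. The smallest p-values were those of Casq2, a calcium store protein (log2 fold change −2.35), and Actc1 (log2 fold change −2.06). Actg2, the actin of visceral muscle, had 412, 359 and 234 CPM in the nivolumab libraries, 565, 883 and 3076 CPM in the cancer libraries and 1101, 3128 and 188 CPM in the sham libraries, with sham 2 and cancer 3 far above the rest and sham 3 the lowest. At an unadjusted p under 0.05, 4 were lower. The count was 22 without sham 3 (median −1.69) and 1 without sham 2 (median −0.27). It was 0 without nivolumab 2, 1 without either nivolumab 1 or nivolumab 3, and 2 without either sham 1 or cancer 2.

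The other stromal, nerve and neighbouring-tissue lists held few separated genes. Enteric neurons had 1 of 33 higher and 0 lower (median 0.21), and glia had 1 of 14 higher, Gfap at 1.56, and 0 lower (median 0.13). Interstitial cells of Cajal had 0 of 8 in either direction (median −0.26). Mesothelium had 1 of 11 higher (median 1.26), and fat storage had 1 of 18 higher (median −0.20), with 0 lower in each. Skeletal muscle had 2 of 11 higher (18.2%, beside 8.81% of all genes) and 0 lower (median −0.41), the 2 genes being Myot and Tnni2. Of the 2 acinar pancreas genes tested, 1 was lower. This was Clps, encoding colipase, with 4.37, 2.69 and 1.14 CPM in the nivolumab libraries, 15.0, 0.914 and 2.68 CPM in the cancer libraries and 33.4, 45.8 and 28.3 CPM in the sham libraries (log2 fold change −3.71, SE 0.95, adjusted p = 0.487).

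Lipid synthesis had 3 of 27 higher with no overlap and 4 lower (median −0.06). Dgat2, which catalyses the last step of triglyceride synthesis, had 108, 79.0 and 105 CPM in the nivolumab libraries, 60.0, 95.4 and 92.5 CPM in the cancer libraries and 34.1, 22.5 and 40.0 CPM in the sham libraries (log2 fold change 1.59, SE 0.26, adjusted p = 0.265). The acyltransferase Agpat2 was higher (log2 fold change 0.62), and Me1, the malic enzyme, was lower (log2 fold change −1.09). Dio2, the deiodinase that makes active thyroid hormone, had 14.4, 7.93 and 12.5 CPM in the nivolumab libraries, 2.72, 6.05 and 1.29 CPM in the cancer libraries and 0.317, 0.714 and 0.234 CPM in the sham libraries (log2 fold change 4.78, SE 0.71, adjusted p = 0.213). The nivolumab libraries of Dio2 lay above all 6 others. Exons of Gm26512 overlap Dio2 on the other strand.

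Fatty acid oxidation and ketogenesis had 5 of 34 higher and 0 lower (median 0.25), led by the dehydrogenase Acadl (351, 276 and 302 CPM in the nivolumab libraries, against 184, 158 and 199 CPM in the sham libraries). Xenobiotic metabolism had 4 of 40 higher and 1 lower (median 0.13), with the glutathione transferase Mgst1 at 1.02. Urea cycle and arginine genes had 5 of 21 higher and 1 lower (median 0.17), among them Arg1, the arginase of activated myeloid cells. Arg1 had 4.25, 2.49 and 22.3 CPM in the nivolumab libraries, against 1.90, 1.67 and 1.74 CPM in the sham libraries (log2 fold change 2.45). Nivolumab 3 carried much of this, and without it the log2 fold change was 0.91. Cholesterol synthesis had 0 of 31 higher and 1 lower (median −0.11), Pmvk at −0.44. Oxidative phosphorylation had 1 of 61 in each direction (median 0.14).

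Ribosomal protein genes showed a small shift across the whole list. Of 78 tested, 26 were higher and 0 lower with no overlap (33.3% and 0%, beside 8.81% and 6.11% of all genes). A positive log2 fold change was found for 77, with a list median of 0.25. The mean log2 CPM of the list was 9.09, 9.04 and 8.81 in the nivolumab libraries, 8.30, 8.07 and 8.51 in the cancer libraries and 8.63, 8.76 and 8.84 in the sham libraries. Rpl27 had 422, 374 and 380.3 CPM in the nivolumab libraries, against 270.5, 288 and 283 CPM in the sham libraries (log2 fold change 0.48, SE 0.14, adjusted p = 0.549). At an unadjusted p under 0.05, 6 were higher, beside 3.6% of all genes. The count was 1 without nivolumab 1 (median 0.11), 2 without either sham 1 or sham 2, and 10 without nivolumab 3.

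Of the red blood cell and haem synthesis list, 2 of 13 genes were higher (15.4%, beside 8.81% of all genes) and 0 lower with no overlap (median 0.54). Both higher genes were under 10 counts in a sham library, so this share is set in part by the filter. Of the 10 members with 10 counts or more in every sham library, 0 were higher with no overlap. Hbb-bs, a beta globin, had 102, 16.0 and 48.1 CPM in the nivolumab libraries, against 18.4, 17.7 and 9.38 CPM in the sham libraries, and Alas2, the haem synthesis enzyme of erythroid cells, had a log2 fold change of 2.02. Hba-a1 and Hba-a2, alpha globins, are near-identical copies that may share reads. Hba-a1 had 77.8, 11.6 and 43.0 CPM in the nivolumab libraries, against 12.3, 11.9 and 5.01 CPM in the sham libraries, with nivolumab 2 in the sham range, and the groups overlapped for both copies. Their log2 fold changes were 2.18 for Hba-a1 and 2.10 for Hba-a2, and 1.44 and 1.32 without nivolumab 1, the library with the most of both.

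Fam221a and Chrm3 had an equal adjusted p. Fam221a had 3.69, 5.48 and 3.18 CPM in the nivolumab libraries, 8.37, 4.40 and 5.97 CPM in the cancer libraries and 25.2, 42.5 and 30.8 CPM in the sham libraries (log2 fold change −2.99, SE 0.35, adjusted p = 0.0892). Chrm3, at chr13:9875486-10360847 on GRCm38, encodes the muscarinic M3 receptor, through which acetylcholine drives secretion and contraction in the gut. It had 0.802, 1.78 and 0.871 CPM in the nivolumab libraries, 6.82, 7.48 and 10.4 CPM in the cancer libraries and 10.7, 14.3 and 10.5 CPM in the sham libraries (log2 fold change −3.35, SE 0.41, adjusted p = 0.0892). The nivolumab libraries lay below all 6 others, and nivolumab against cancer had a log2 fold change of −2.83 and an adjusted p of 0.141, beside a smallest value of 0.139 over all genes in that comparison.

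**Figure D4:**
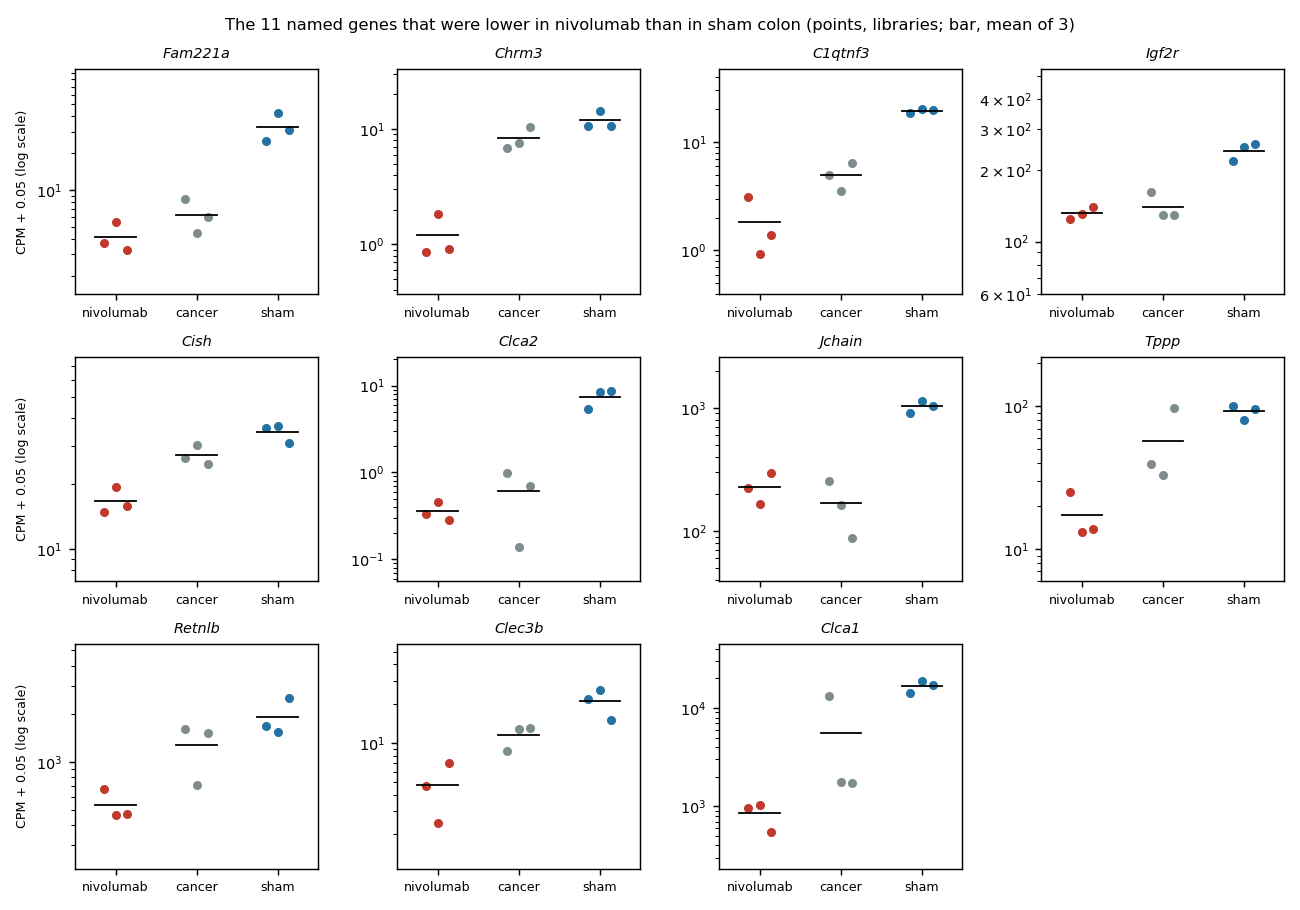
CPM plus 0.05 on log axes for the 11 named genes that were lower in nivolumab than in sham colon, with 1 point per library and a bar at the mean of each group of 3; nivolumab, cancer and sham run from left to right. No nivolumab point reaches a sham point in any panel, and the nivolumab points of Chrm3, C1qtnf3, Cish, Tppp, Retnlb, Clec3b and Clca1 also lie below every cancer point.

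The other named genes on the lower side have varied roles. C1qtnf3, a secreted relative of complement C1q, had 3.09, 0.873 and 1.34 CPM in the nivolumab libraries, 4.92, 3.48 and 6.31 CPM in the cancer libraries and 18.5, 20.0 and 19.5 CPM in the sham libraries (log2 fold change −3.45, SE 0.49, adjusted p = 0.176). Tppp, which promotes tubulin assembly, had 25.2, 13.1 and 13.8 CPM in the nivolumab libraries, 39.5, 33.0 and 97.8 CPM in the cancer libraries and 101, 80.4 and 95.1 CPM in the sham libraries (log2 fold change −2.41, SE 0.44, adjusted p = 0.322). Clec3b, the plasminogen-binding lectin tetranectin, had 4.61, 2.38 and 7.0 CPM in the nivolumab libraries, 8.67, 12.8 and 12.9 CPM in the cancer libraries and 21.7, 25.5 and 15.1 CPM in the sham libraries (log2 fold change −2.15, SE 0.41, adjusted p = 0.331). The nivolumab libraries of C1qtnf3, Tppp and Clec3b lay below all 6 others. Igf2r, the receptor that carries lysosomal enzymes and clears IGF2, had 124, 131 and 140.3 CPM in the nivolumab libraries, 162, 129 and 130.1 CPM in the cancer libraries and 219.9, 251 and 258 CPM in the sham libraries (log2 fold change −0.88, SE 0.14, adjusted p = 0.265). Its cancer libraries were close to those of nivolumab.

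The remaining named genes on the higher side include secreted and membrane proteins of epithelium and leukocytes. S100a11, a calcium-binding protein of epithelial cells, had 298, 384 and 434 CPM in the nivolumab libraries, 277, 195 and 194 CPM in the cancer libraries and 134, 141 and 148 CPM in the sham libraries (log2 fold change 1.40, SE 0.19, adjusted p = 0.176). The nivolumab libraries lay above all 6 others. Plaur, the urokinase receptor, had 38.4, 24.2 and 41.3 CPM in the nivolumab libraries, 39.0, 41.1 and 24.4 CPM in the cancer libraries and 10.8, 13.4 and 10.1 CPM in the sham libraries (log2 fold change 1.60, SE 0.28, adjusted p = 0.298). Prss22, a serine protease of epithelia, had 5.90, 9.34 and 10.9 CPM in the nivolumab libraries, 9.67, 10.1 and 1.39 CPM in the cancer libraries and 0.0317, 0 and 0.234 CPM in the sham libraries (log2 fold change 6.51, SE 1.12, adjusted p = 0.298). Its sham libraries were close to 0 and the other groups mostly were not.

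Pglyrp1, a peptidoglycan recognition protein that kills bacteria, had 384, 519 and 352 CPM in the nivolumab libraries, 366, 500.0 and 338 CPM in the cancer libraries and 184, 203 and 196 CPM in the sham libraries (log2 fold change 1.11, SE 0.20, adjusted p = 0.322). Pde9a, a phosphodiesterase specific for cyclic GMP, had 919.8, 708 and 642 CPM in the nivolumab libraries, 813, 1058 and 535 CPM in the cancer libraries and 282, 274 and 333 CPM in the sham libraries (log2 fold change 1.35, SE 0.26, adjusted p = 0.331). The cancer libraries of both genes lay with those of nivolumab. Aprt, which salvages adenine, had 143, 152 and 119 CPM in the nivolumab libraries, 107, 97.8 and 99.1 CPM in the cancer libraries and 82.4, 82.8 and 94.2 CPM in the sham libraries (log2 fold change 0.67, SE 0.13, adjusted p = 0.331). Tmem253 had 46.5, 50.1 and 41.2 CPM in the nivolumab libraries, 52.6, 47.2 and 42.7 CPM in the cancer libraries and 30.2, 23.1 and 25.2 CPM in the sham libraries (log2 fold change 0.81, SE 0.16, adjusted p = 0.331). Exons of other genes overlap Pde9a and Tmem253 on the other strand. In the group means, nivolumab was 2.15-fold higher for Pglyrp1, 2.55-fold for Pde9a, 1.59-fold for Aprt and 1.76-fold for Tmem253, modest differences beside sham libraries that lay close together.

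**Figure D5:**
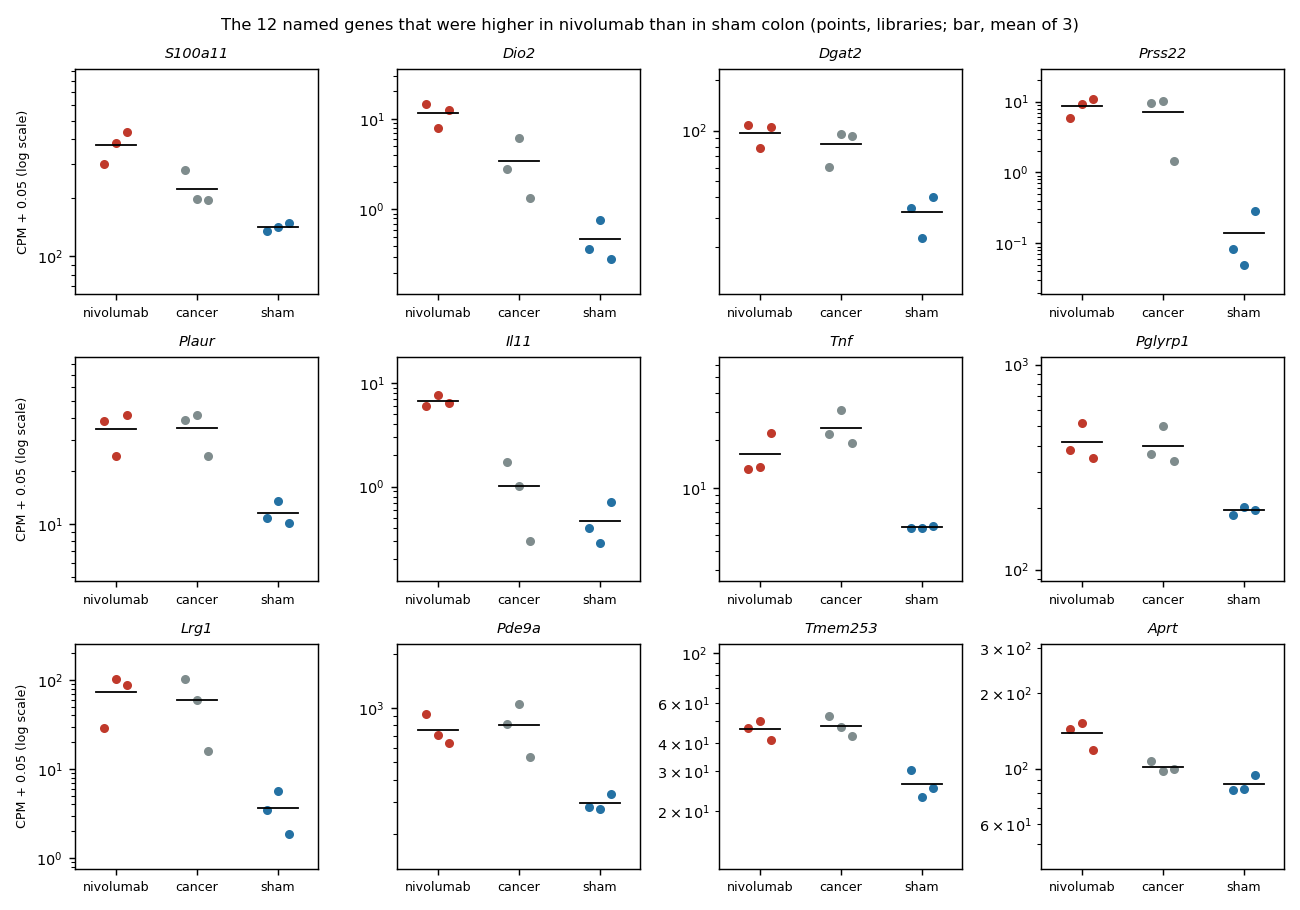
CPM plus 0.05 on log axes for the 12 named genes that were higher in nivolumab than in sham colon, with 1 point per library and a bar at the mean of each group of 3; nivolumab, cancer and sham run from left to right. No nivolumab point reaches a sham point in any panel, and the cancer points lie with nivolumab for Plaur, Pglyrp1 and Pde9a but below it for Il11, Dio2 and S100a11.

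Whether the nivolumab colon differed from the cancer colon was tested in the same fit, with cancer libraries that also set the spread for the values above. No gene passed an adjusted p of 0.05 in edgeR (0% in either direction), 746 were higher (5.55%) and 577 lower (4.29%) at an unadjusted p under 0.05, and the smallest adjusted p was 0.139. DESeq2 called 181 genes and limma with voom quality weights called 3. Cancer against sham, which shares the sham libraries, also had no gene past the threshold in edgeR, with 5.38% higher and 5.53% lower at an unadjusted p under 0.05. DESeq2 called 379 genes there and limma with voom quality weights called 26. In nivolumab against sham, the tumour and the antibody cannot be told apart.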

How the data were processed

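Bulk RNA was sequenced from mouse colon. Per the labels' protocols, TRIzol was used for RNA and a SmartScribe kit for cDNA. The submitters' processing notes list the GRCm38 build and, with no role or order, StringTie, HISAT2, Trimmomatic and FastQC 0.11.5. Counting tool, strand setting and annotation were not given in the sources used here. Unnormalised counts made up the deposited table, which the authors gave for 14987 gene symbols. Among the 13445 genes tested, those with a count of 1 (1 or 2 per library in the 6 libraries) were fewer than those with a count of 2 (9 to 76). Low counts are thus not all single reads. Without strand, reads of overlapping or antisense genes cannot be told apart. Of the symbols, 14985 matched GENCODE M21, from which coordinates were taken.

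All 9 colon libraries were fitted in R 4.3.3 by edgeR 4.0.16 (quasi-likelihood test, robust estimates), with TMM scaling and the default expression filter, which left 13445 genes. Tests were two-sided, with Benjamini-Hochberg adjustment at 0.05. CPM used TMM-scaled library sizes, and log2 CPM a prior count of 2. SE is the log2 fold change divided by the root of its F statistic. The biological coefficient of variation was 0.376. Intervals were not given, and floors of 3 counts cover counting error only. No pair of replicates agreed within sampling noise. An exact permutation test of 3 against 3 libraries cannot go below p = 0.1, so none was used. The edgeR code was tested on simulated counts. DESeq2 1.42.0 and limma 3.58.1 (voom with quality weights) were alternatives, as were other scalings and filters, a fit of the 2 groups alone, a replicate block, a covariate for the ratio of muscle to colonocyte RNA, and leaving out each library. Leaving out nivolumab 1 with sham 3 was added after seeing the data.

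The rule for named genes took the 12 genes per direction with the largest differences past the threshold, with no overlap and with mean log2 CPM no lower than 1, and filled up with the smallest unadjusted p. In each of 50 gene lists, 1 or 2 members with the smallest p were named, and Pdcd1, Cd274 and Pdcd1lg2 whatever their values. Some genes that these rules named are not reported here. Genes, lists and tests were chosen with earlier results of these data known. Lists are described by counts and medians, with no set test. Some lists share members, so their counts are not separate from each other.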

Additional observations from a re-analysis of the deposited data

How the results depend on the processing

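The count of 0 genes past the threshold between nivolumab and sham colon was the same in edgeR with RLE or upper-quartile scaling, with no filter (14987 genes), with the filter set to mean log2 CPM 1 or more (11719 genes) and with the tissue makeup covariate. DESeq2 called 81 higher and 66 lower, limma with voom quality weights 49 higher and 44 lower, and the fit of the 2 groups alone 1 higher (Ereg) and 6 lower (Itln1, Clca1, Pla2g4c, Clca2 and Fam221a among them). Leaving out 1 library gave 0 higher and 0 to 3 lower, among them Clca1 without cancer 1, and Clca2 and Fam221a without cancer 2. Without both nivolumab 1 and sham 3 it was 0 in each direction. Nivolumab against cancer gave 181 genes with DESeq2, 3 with limma and 0 to 2 when a library was left out. Cancer against sham gave 379, 26 and 0 to 9. Of the 23 genes named for their p, DESeq2 called 22 and limma 21.

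The replicate block gave 0 higher and 0 lower genes, and 1 in cancer against sham. Between nivolumab and sham libraries with equal replicate numbers, the correlations were 0.416, −0.04 and 0.07. With unequal numbers they ran from −0.45 to 0.27. Being taken on deviations from means of 3 libraries, they cannot settle whether equal numbers mark a pairing. The main fit used no pairing.

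Over all named genes and alternatives, 3258 log2 fold changes kept direction and side of the threshold, 118 passed it where they had not, and 8 reversed. Gcg was −0.0066 without both nivolumab 1 and sham 3. Cryab was 0.17 with the makeup covariate. With limma, Tff3 was −0.62 and Zg16 −0.16. When libraries were left out, Gcg ran from −0.075 to 0.61, Cryab from −1.42 to 0.22 and Tff3 from −0.44 to 0.67. The cause was not tested. The median over all genes stayed between −0.04 and 0.08. Depth limits genes near 0.120 CPM or below, where 3 counts in a library decide a value.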

Other observations

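Some genes outside the lists and the naming rule had large differences, and were chosen after their values were seen. Mptx1, the mucosal pentraxin of the intestine, had 1.93, 57.7 and 5.13 CPM in the nivolumab libraries, 598, 4.48 and 5.62 CPM in the cancer libraries and 3303, 11420.1 and 7142 CPM in the sham libraries (log2 fold change −8.40, SE 2.37, adjusted p = 0.549). It was high in all 3 sham libraries, and cancer 1 held it well above the other tumour-bearing libraries. Pla2g4c, a phospholipase A2, had 2.49, 6.21 and 10.7 CPM in the nivolumab libraries, 20.5, 1.09 and 116 CPM in the cancer libraries and 704, 552 and 1119.8 CPM in the sham libraries (log2 fold change −6.93, SE 1.45, adjusted p = 0.372). The sham libraries again lay above all 6 others. Gsdmc, a gasdermin of gut epithelium with close relatives in the mouse, had 6.02, 11.7 and 3.05 CPM in the nivolumab libraries, against 61.8, 64.9 and 62.6 CPM in the sham libraries (log2 fold change −3.19), and may share reads with them. Pnliprp2, a pancreatic-type lipase, had 10.3, 2.02 and 1.41 CPM in the nivolumab libraries, against 75.0, 85.9 and 95.4 CPM in the sham libraries (log2 fold change −4.23). Grpr, the receptor of gastrin-releasing peptide, had 0.562, 0.269 and 0.436 CPM in the nivolumab libraries, against 5.0, 3.93 and 5.94 CPM in the sham libraries (log2 fold change −3.55).

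Among genes on the higher side, Ereg, encoding epiregulin, had 61.5, 73.2 and 61.9 CPM in the nivolumab libraries, 52.3, 164 and 8.95 CPM in the cancer libraries and 17.1, 11.4 and 10.8 CPM in the sham libraries (log2 fold change 2.32, SE 0.79, adjusted p = 0.674), with cancer 3 below the sham libraries. Epgn, encoding epigen, had 1.20, 2.49 and 2.95 CPM in the nivolumab libraries, against 0.158, 0.476 and 0.167 CPM in the sham libraries (log2 fold change 3.05). Cemip, a hyaluronan-degrading protein, had 23.4, 24.9 and 44.0 CPM in the nivolumab libraries, 21.9, 5.0 and 2.73 CPM in the cancer libraries and 1.36, 3.02 and 0.634 CPM in the sham libraries (log2 fold change 4.21, SE 0.88, adjusted p = 0.372). Il19, a cytokine of the interleukin 10 family, had 2.05, 0.605 and 1.47 CPM in the nivolumab libraries, 0, 3.92 and 0 CPM in the cancer libraries and 0, 0 and 0 CPM in the sham libraries, which is at least 13.1-fold higher in nivolumab against a floor of 3 counts per library.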
